A study of Mus musculus with 55 samples.

Results

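KMT2C binding was compared between tumours of one genotype at 2 sites, liver and lung, in 4 of the 55 samples of the series: 2 liver PRM libraries and 2 lung PRM libraries, each an anti-KMT2C CUT&Tag library with its own deposited list of SEACR peaks. PRM stands for mouse lung organoids that carried guides against Trp53 (U6-sgTrp53) and Rb1 (U6-sgRb1) and the Myc construct MSCV-Myc-IRES-Luc2. The organoids were injected into the left lung lobe of recipient mice, and both groups share these alleles and this route, so site is the labelled difference. All 4 libraries used the same antibody from Abcam, and no untreated or uninjected tissue was part of the comparison. The labels do not say whether the 2 libraries of a site came from separate animals, nor the age or sex of the recipients, and host cells of either organ may be present in the harvested material. The 4 lists held 204960 peaks of the 1035715 in the 26 peak lists of the series. Peaks that shared 1 bp or more were merged into 127074 regions. Because the lists differed greatly in length, the comparison was repeated with the 9949 peaks of highest signal from each list, 9949 being the length of the shortest, which merged into 15403 regions. A region is called liver-only where both liver libraries and neither lung library had a peak, and lung-only in the opposite case.

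KMT2C, also known as MLL3, is a histone methyltransferase of a COMPASS-like complex that shares core subunits such as WDR5, RBBP5, ASH2L and DPY30 with the other KMT2 enzymes. It is best known for placing H3K4 monomethylation (H3K4me1) at enhancers, whereas H3K4 trimethylation (H3K4me3) marks active gene starts. KMT2C is recurrently mutated in human cancers, small cell lung cancer among them. CUT&Tag uses an antibody-tethered transposase to cut and tag DNA next to the bound protein, and SEACR joins stretches of signal into peaks. Each peak carries its total signal and the highest signal within it, the latter being the measure of strength used here unless another is named.

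Gene starts that carried KMT2C in all 4 libraries, in liver only and in lung only, among the equal numbers of peaks, are given here as 6 examples from RefSeq promoters (GRCm38.p6, 250 bases before to 50 after a start). Nkx2-1, a lung lineage transcription factor, and Dnmt3a, a de novo DNA methyltransferase, had peaks in all 4 libraries. Meis2, a homeobox factor, and Syt1, a synaptic vesicle calcium sensor, had them in both liver libraries only. Mcts2, an imprinted retrogene, and Kdm4c, a histone demethylase, had them in both lung libraries only. Capitals mark GGGCGG (the GC box), CCGGAAG (an ETS-type site) and CATGCGC (part of an NRF1-type site), searched on both strands.
Nkx2-1: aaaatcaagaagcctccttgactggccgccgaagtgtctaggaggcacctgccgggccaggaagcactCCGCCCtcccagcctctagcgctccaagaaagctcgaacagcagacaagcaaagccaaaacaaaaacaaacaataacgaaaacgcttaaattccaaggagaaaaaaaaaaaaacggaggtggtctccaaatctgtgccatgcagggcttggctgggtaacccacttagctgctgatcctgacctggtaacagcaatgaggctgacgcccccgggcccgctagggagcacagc
Dnmt3a: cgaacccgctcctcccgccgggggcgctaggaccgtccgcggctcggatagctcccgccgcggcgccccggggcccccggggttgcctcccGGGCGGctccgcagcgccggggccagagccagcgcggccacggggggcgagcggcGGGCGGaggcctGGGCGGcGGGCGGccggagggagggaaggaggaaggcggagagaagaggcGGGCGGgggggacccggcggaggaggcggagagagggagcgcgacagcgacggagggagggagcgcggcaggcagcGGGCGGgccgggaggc
Meis2: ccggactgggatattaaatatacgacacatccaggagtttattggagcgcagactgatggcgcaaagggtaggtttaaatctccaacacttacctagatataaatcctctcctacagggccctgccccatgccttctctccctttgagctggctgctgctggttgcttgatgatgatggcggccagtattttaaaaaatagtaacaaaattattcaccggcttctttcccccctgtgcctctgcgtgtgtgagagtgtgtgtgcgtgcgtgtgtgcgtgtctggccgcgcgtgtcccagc
Syt1: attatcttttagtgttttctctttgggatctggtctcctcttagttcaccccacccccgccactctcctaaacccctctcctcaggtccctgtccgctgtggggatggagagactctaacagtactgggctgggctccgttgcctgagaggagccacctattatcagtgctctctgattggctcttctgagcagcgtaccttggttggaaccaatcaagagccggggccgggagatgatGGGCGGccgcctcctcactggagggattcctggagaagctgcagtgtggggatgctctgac
Mcts2: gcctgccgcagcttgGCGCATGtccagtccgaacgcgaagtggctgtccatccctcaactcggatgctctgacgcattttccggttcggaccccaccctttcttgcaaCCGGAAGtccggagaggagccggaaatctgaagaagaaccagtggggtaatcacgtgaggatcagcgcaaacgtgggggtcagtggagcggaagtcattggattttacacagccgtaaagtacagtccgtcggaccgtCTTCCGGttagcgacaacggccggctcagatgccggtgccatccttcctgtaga
Kdm4c: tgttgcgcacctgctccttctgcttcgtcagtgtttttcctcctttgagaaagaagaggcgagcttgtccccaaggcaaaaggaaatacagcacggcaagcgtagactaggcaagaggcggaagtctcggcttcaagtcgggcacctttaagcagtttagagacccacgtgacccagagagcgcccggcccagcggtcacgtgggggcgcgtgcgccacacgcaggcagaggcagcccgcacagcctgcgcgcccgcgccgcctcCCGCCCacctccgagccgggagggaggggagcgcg
These windows lie at chr12:56536859-56537158 on the minus strand (Nkx2-1), chr12:3806730-3807029 on the plus strand (Dnmt3a), chr2:116064570-116064869 on the minus strand (Meis2), chr10:109010926-109011225 on the minus strand (Syt1), chr2:152686898-152687197 on the plus strand (Mcts2) and chr4:74251629-74251928 on the plus strand (Kdm4c). The Dnmt3a window held 46 CpG dinucleotides and 6 GGGCGG matches. Syt1 had 8 CpG dinucleotides, Nkx2-1 12 and Meis2 13, whereas Mcts2 had 25 and Kdm4c 28. Mcts2 held 2 CCGGAAG matches and 1 CATGCGC match. The pair held in liver only thus had fewer CpG dinucleotides than the pair held in lung only, and the shared pair, at 12 and 46, spanned both. The classes did not differ in this way. The median was 21 CpG dinucleotides in 356 liver-only starts, 20 in 200 lung-only starts and 23 in 3443 shared starts. The 6 windows are examples, and a match is a description of letters, not a bound site.

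The liver lists were much longer than the lung lists. Liver replicate 1 had 65201 peaks and liver replicate 2 had 113129, against 9949 and 16681 in lung replicates 1 and 2. The means were 89165 ± 33890 (SD, n = 2) for liver and 13315 ± 4760 (SD, n = 2) for lung. The groups did not overlap, but the exact two-sided permutation test of 2 against 2 libraries cannot give a p below 0.3333, which is the p it gave. Peaks covered 109 and 147 Mb in liver and 20.98 and 29.6 Mb in lung. Liver peaks were weaker at the median: the median highest signal of a peak was 10 and 8 in liver and 27 and 19 in lung, and the weakest peak of a list reached 3 in each liver library against 7 and 6 in lung. Neither read depth nor the control used for calling is known here, so list length and calling threshold cannot be told apart. Once each list was limited to its 9949 strongest peaks, the medians were 27 and 29 in liver and 27 and 26 in lung, and the ranges overlapped.

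With all peaks, the lists were almost nested. Of lung replicate 1 peaks 94.5% and 96.8% touched a peak of liver replicates 1 and 2, and of lung replicate 2 peaks 88.8% and 93.5% did. In the other direction, 8.91% to 22.4% of liver peaks touched a lung peak. All 4 libraries held 8014 of 127074 regions (6.31%), liver-only regions numbered 27302 (21.5%) and lung-only regions 162 (0.127%). A further 63959 regions were held by liver replicate 2 alone, more than any shared class. Without lung replicate 1 the lung-only regions numbered 782, and without liver replicate 2 378. Without liver replicate 1 the liver-only regions numbered 96139, and without liver replicate 2 49859.

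With equal numbers, liver-only and lung-only regions were similar in number where a touch of 1 bp sufficed. All 4 libraries held 4946 of 15403 regions (32.1%). Liver-only regions numbered 1403 (9.11%) and lung-only regions 1265 (8.21%), close to the 1117 to 1353 regions held by a single library. Libraries of one site nevertheless overlapped more than libraries of different sites: 76.0% to 78.9% of peaks touched a peak of the other replicate, and 62.2% to 69.0% touched a peak from the other site. These ranges did not overlap. Leaving out liver replicate 1 or 2 gave 2695 and 2796 liver-only and 1681 and 1720 lung-only regions. Leaving out lung replicate 1 or 2 gave 1831 and 2117 liver-only and 2412 and 2661 lung-only regions, the opposite order. Each time the site that lost a library, and so had to meet a looser rule, had the larger class. The ratio of liver-only to lung-only regions depended on the overlap asked for and on how the lists were made equal. Where a library's peaks had to cover at least 50% of a region, equal numbers gave 2277 liver-only and 1197 lung-only regions. Lists of equal covered length (20.98 Mb each, 6797 and 6916 liver peaks and 9949 and 11272 lung peaks) gave 593 liver-only and 2329 lung-only regions, the opposite order. Liver peaks of equal number were longer, with medians of 2176 and 2183 bp against 1796 and 1571 bp in lung.

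**Figure D1:**
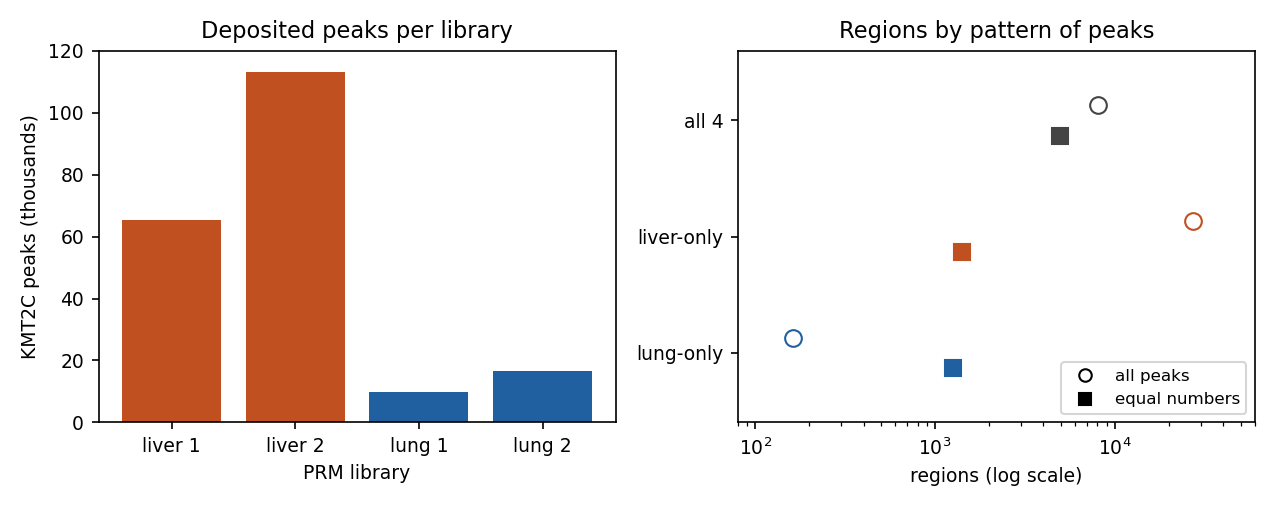
Left, deposited KMT2C peaks per PRM library (bars, axis in units of 1000 peaks; liver orange, lung blue). Right, regions on a log axis with a peak in all 4 libraries, in both liver libraries only or in both lung libraries only, from all peaks (open circles) and from the 9949 strongest of each list (filled squares); 27302 against 162 regions became 1403 against 1265.

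Most lung-only regions of the equal-number comparison did have a liver peak, which the limit on number had left out. Of the 1265 lung-only regions, 89.5% had a left-out peak in at least 1 liver library and 77.3% in both. In those that did, the median highest signal was 14 in each liver library, at ranks of about 17242 and 18367, beside 23 in each lung library. The selection itself bears on these medians, since no left-out liver peak could exceed 19 and 20. Whether the liver peak was the weaker one was not tested region by region. Of the 1403 liver-only regions, 25.7% had a left-out lung peak, all from lung replicate 2, since the whole list of lung replicate 1 was already in use. This left 1042 liver-only and 133 lung-only regions with no peak of any strength at the other site. The 2 numbers are not comparable, because the liver lists reach further down. The last peak kept had a highest signal of 19 and 20 in liver and 7 and 17 in lung, and the first left out had 19, 20 and, in lung replicate 2, 17. The limit fell among 991, 852 and 803 peaks of the same highest signal, which were ordered by total signal.

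The strongest one-site regions were mostly short and far from gene starts. Among the liver-only regions with no lung peak, the 10 best ranked lay over 1 kb from any listed start and had a median length of 458 bp. None had an H3K4me1 peak in both libraries of either site. Nor did any have an H3K4me2, H3K4me3 or ATAC peak in both lung libraries. A peak in only 1 library of a pair was not counted. Of the 10, 8 had KMT2C peaks in both lung PRMK libraries. PRMK tumours carry the PRM constructs and a guide against Kmt2c. The first of these, chr1:135205613-135205633 near Gpr37l1, was 21 bp long and reached 236 and 216 in the liver libraries. The second, chr3:142190998-142192032, reached 104 and 92 and lay 199818 bp from the start of Pdlim5. Among the lung-only regions with no liver peak, the 10 best ranked reached much higher: chr17:70963456-70964010, 26506 bp from the start of Myl12b, had 819 and 837 in the lung libraries, rank 4 and 2 of all peaks. A region of 8153 bp at chrY:90737252-90745404, over Gm52481, had 875 and 827. Another, chr2:5378804-5379454 inside Camk1d, had 595 and 578. Of these 10, 6 carried lung H3K4me3, 2 had no H3K4 or ATAC peak in both libraries of any pair, and none had KMT2C peaks in both PRMK libraries. The 10 best ranked regions shared by all 4 libraries were longer, with a median of 1268 bp. Of them 7 lay over 1 kb from any listed start and 5 carried lung H3K4me3. The first, chr7:82770157-82772223 inside Efl1, ranked 1, 1, 2 and 1 (939 and 1084 in liver, 899 and 931 in lung). It had no H3K4 or ATAC peak in both libraries of any pair, and 5 of the 10 best shared regions had none by that rule. Narrow peaks of extreme signal with no histone mark in both libraries of a pair were thus present at both sites.

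Some one-site regions lay side by side. In 11 stretches there was both a liver-only and a lung-only region within 100 kb of each other, each with no peak of any strength at the other site. The densest, chr6:114496521-114634067 between Hrh1 (a histamine receptor gene) and Atg7 (an autophagy gene), held 13 of the 133 lung-only and 9 of the 1042 liver-only regions. It was full of peaks in every kind of library: 22 and 30 in the liver KMT2C libraries, 30 and 32 in lung, 20 to 33 in PRMK, and 25 to 36 in the H3K4me1 libraries of either site, though 0 in lung ATAC. A second stretch, chrY:90717478-90823907, held 7 liver-only and 2 lung-only regions. Outside the 11 stretches 1012 liver-only and 109 lung-only regions remained.

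Regions shared by all 4 libraries were mainly gene starts, and one-site regions mainly were not. A start within 1 kb was present at 59.9% of shared regions, 23.8% of liver-only regions (95% exact binomial interval 21.6 to 26.1, counting error only) and 16.9% of lung-only regions (14.9 to 19.1), against 39.1% of all regions. Bodies of annotated genes away from starts held 29.9%, 49.6% and 58.8%, against 42.1% of all regions. Outside genes lay 10.2%, 26.6% and 24.3%, against 18.7% of all regions. Lung PRM H3K4me3 was present at 70.7%, 27.2% and 22.1%, and lung PRM open chromatin by ATAC at 77.1%, 26.5% and 29.3%. Over all regions each of these was present at 46.1%. Neighbouring regions are not independent, and the shares describe these 4 libraries. Shared regions were also longer, with a median of 3540 bp against 2157 bp (liver-only) and 1973 bp (lung-only), and a longer region touches a start or mark more easily. Their median signals were 34 to 37, against 25 and 26 at liver-only regions in liver and 23 at lung-only regions in lung. The part played by length and strength was not tested. The order of liver-only over lung-only at starts is not stable: without liver replicate 2 the shares were 23.6% and 24.8%. For H3K4me3 that order also turned, at 27.1% and 30.6% without liver replicate 2 and at 27.5% and 28.8% when peaks were ordered by total signal. Shared regions exceeded both one-site classes at starts and at H3K4me3 in all the settings tried.

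H3K4me1, the mark KMT2C is known to place, lay at lung-only regions more than at liver-only ones when peaks were ordered by highest signal. All H3K4me1 libraries of liver and lung PRM had a peak at 68.0% of lung-only regions (65.3 to 70.6), 43.8% of liver-only regions (41.2 to 46.5), 47.9% of shared regions and 46.4% of all regions. When peaks were ordered by total signal, the shares were 57.4% and 60.02%, so lung-only regions were no longer the higher class. With 50% of the number of peaks the difference narrowed to 66.2% and 54.0%, and leaving out lung replicate 1 gave 56.6% and 46.3%. Among regions not at a start, 74.6% of lung-only, 51.3% of liver-only, 77.6% of shared and 61.8% of all regions had H3K4me1 at both sites. Lung-only regions thus did not exceed shared ones there. Lung-only regions with no liver peak of any strength had it at 51.9% (43.1 to 60.6), and the corresponding liver regions at 41.9%. H3K4me1 confined to 1 site was rare in both classes. It was present in both liver and in no lung H3K4me1 library at 1.07% of liver-only and 1.42% of lung-only regions, against 1.44% of all regions. In both lung and no liver library it was present at 0.214% and 0.474%, against 0.266% of all regions. With 27745 H3K4me1 peaks taken from each list, the length of the shortest, the class shares were 0.713% and 1.26% for liver without lung, and 0.927% and 1.03% for lung without liver. Over all regions they were 1.03% and 0.818%. Some regions had no peak in any H3K4me1 library of either site, nor in any H3K4me2, H3K4me3 or ATAC library of lung PRM. They made up 16.3% of liver-only, 4.11% of lung-only and 0.505% of shared regions, against 8.12% of all regions. Of these marks only H3K4me1 was read in liver, so the liver-only and lung-only shares are not like for like. The liver-only regions without a lung peak of any strength had no such peak at 19.96%, and the corresponding lung regions at 8.27%.

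**Figure D2:**
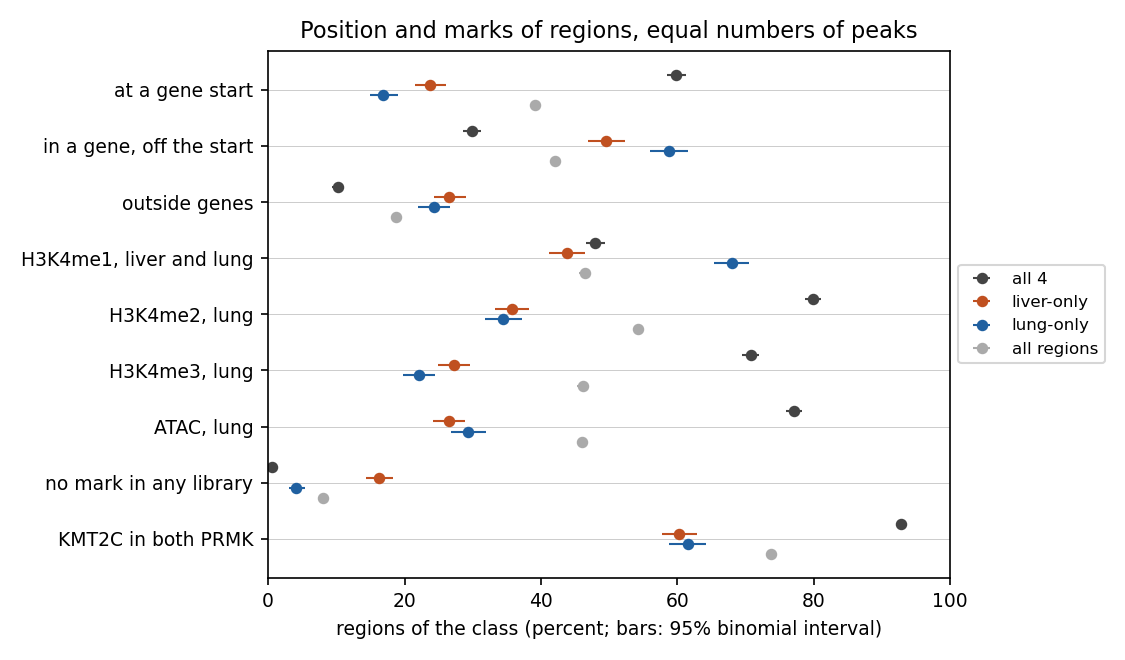
Percent of regions of each class (points; bars are 95% exact binomial intervals) at gene starts, in genes, outside genes, with histone marks or ATAC peaks, and with KMT2C in both PRMK libraries, for equal numbers of peaks. Shared regions stand apart at starts (59.9%) and H3K4me3 (70.7%), and lung-only regions at H3K4me1 (68.0%). Among regions not at a start (not drawn), H3K4me1 was at 74.6% of lung-only and 77.6% of shared regions.

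**Figure D3:**
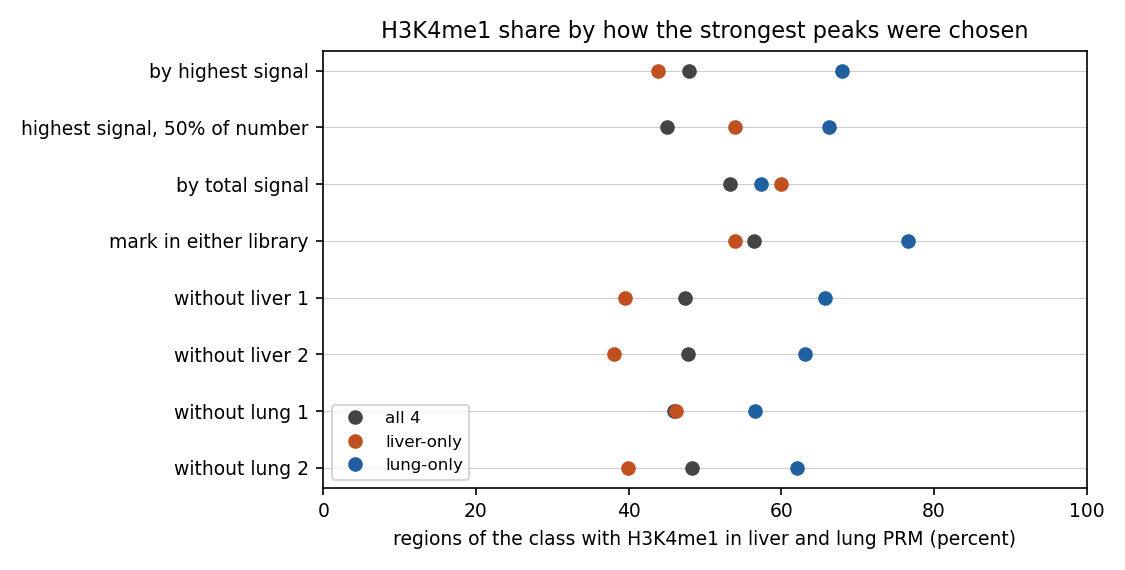
Percent of regions with H3K4me1 in all liver and lung PRM libraries (horizontal axis) for each class (colours) under 8 ways of choosing peaks, mark or libraries (rows). Lung-only regions lie right of liver-only regions in every row but the one ordered by total signal, where they read 57.4% and 60.02%.

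Lung PRMK tumours, whose label adds a Kmt2c guide to the PRM constructs, had 187682 and 134561 peaks in the KMT2C libraries, more than either PRM site. Both PRMK libraries had a KMT2C peak at 92.8% of shared, 60.3% of liver-only and 61.6% of lung-only regions, against 73.7% of all regions. Regions held in lung with no liver peak of any strength were touched by both PRMK libraries at 21.1%, and the corresponding liver regions at 55.4%. The antibody's signal in PRMK was not set against a no-antibody control here, and how much of the PRM signal is KMT2C itself was not tested. The PRMK replicates also differ in a further guide, against Meis2 in replicate 1 and a scramble in replicate 2.

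Within the 4946 shared regions, strength was ordered by site in about as many regions each way. Both liver ranks were better than both lung ranks in 1249 (25.3%), the reverse held in 1291 (26.1%), and ranks overlapped in 2406 (48.6%). Starts made up 49.9% of the first, 56.5% of the second and 66.9% of the third. Chromosomes took slightly different shares at the 2 sites. Chromosome 13 held 4.46% and 4.67% of the equal-number liver peaks and 3.44% and 3.799% of the lung peaks, and chromosome 11 held 10.6% and 10.2% against 12.1% and 11.5%. Of liver-only regions 7.34% were on chromosome 13 and 6.49% on chromosome 11, against 3.72% and 12.02% of lung-only regions.

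With equal numbers of peaks, more promoters were liver-only than lung-only, but as at regions the order depended on how the lists were made equal. A gene was counted as held where a peak fell within 1 kb of its start. For the 4395 genes with no listed start, a peak within 1 kb of either annotated end counted, so it may lie at the far end. Such genes named below include Myc, Rb1, Nfib, Pbx3, Pknox1, Actb, Hey1 and Peg10. Of 21887 protein-coding genes, all peaks gave 4558 held in all 4 libraries (20.8%), 3654 liver-only (16.7%) and 12 lung-only (0.0548%). Equal numbers gave 3447 (15.7%), 387 (1.77%) and 210 (0.959%). Lists of equal covered length, an alternative chosen after seeing the data, gave 2897, 114 and 627, so lung-only promoters were then the larger class. The 12 lung-only genes became 70 without lung replicate 1 and 26 without liver replicate 2, and with equal numbers leaving out any library gave 614 to 820 liver-only and 392 to 500 lung-only genes. Most of these genes carried lung PRM H3K4me3: 98.4% of those held in all 4, 91.2% of liver-only and 84.8% of lung-only genes, against 56.3% of all genes. The gene lists below are set against all genes, but their H3K4me3 shares differ. It was at 88.2% of KMT2 complex, 88.9% of DNA methylation and 100% of MEIS and PBX genes. Hox and hepatocyte genes had it at 10.3% and 7.69%. The part played by H3K4me3 in the list counts was not tested. Of the listed starts held in all 4 libraries 72.6% contained GGGCGG, against 62.9% of liver-only, 64.0% of lung-only and 46.2% of all 21263 starts. Among starts with H3K4me3 the shares drew together, at 73.1%, 66.5%, 68.8% and 67.8%. CATGCGC was found in 8.90% of shared, 6.90% of liver-only and 7.51% of lung-only starts with H3K4me3, against 7.26% of all such starts, and CCGGAAG in 18.5%, 16.3%, 20.2% and 18.5%. The promoters printed above for Meis2 and Nkx2-1 show how unlike a CpG-rich start such as that of Dnmt3a a held promoter could be.

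The genes targeted or added in the model were examined first. At Trp53, the tumour suppressor targeted by a guide, the promoter peak reached 56 and 59 in liver and 45 and 54 in lung, with the liver values higher and no overlap. At Kmt2c it reached 20 and 33 in liver and 29 and 24 in lung, overlapping ranges. At Myc the values were 15 and 30 in liver with no lung peak, and with equal numbers Myc was held by 1 liver library only. Rb1 had no promoter peak in any of the 4 libraries. A peak at a promoter does not report whether a guide cut the gene.

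Subunits of the KMT2 complexes were widely held. Of 17 genes, 13 had peaks in all 4 libraries with all peaks, against 20.8% of all genes, and 10 with equal numbers. Kmt2a, encoding the MLL1 methyltransferase, had 55 and 74 in liver and 97 and 60 in lung. The cofactor gene Hcfc1 had 48 and 63 against 52 and 44. Pagr1a, a subunit of the MLL3 and MLL4 complexes, had 39 and 45 in liver and 56 and 59 in lung, without overlap. Setd1a had 48 and 29 against 40 and 36. Paxip1, which encodes the PTIP partner of PAGR1, had 20 and 25 in liver and no lung peak, and was the 1 liver-only gene of the list. Rbbp5 (19 and 18 in liver, 15 and 18 in lung) and Men1 (18 and 18, 12 and 17) were lung-only with equal numbers although all 4 libraries had a peak, which shows how a call at the limit turns on the length of the list.

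Of 9 genes for DNA methylation and its removal, 4 (44.4%) were held in all 4 libraries under both counts, against 20.8% of all genes with all peaks and 15.7% with equal numbers. The maintenance methyltransferase gene Dnmt1 had 71 and 78 in liver and 89 and 86 in lung. Dnmt3a had 27 and 26 in liver and 37 and 28 in lung. Uhrf1, a partner of DNMT1, had 33 and 28 against 30 and 40, and the dioxygenase gene Tet3 had 28 and 29 against 34 and 30. Dnmt1, Dnmt3a and Tet3 were higher in both lung than in both liver libraries, by margins of 1 to 8 signal units between the nearest replicates. Tet2 had 10 and 9 in liver and none in lung, below the equal-number limit.

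The MEIS and PBX homeobox genes were split. Of 11, 5 (45.5%) were held in all 4 libraries with all peaks, against 20.8% of all genes, and 3 (27.3%) were liver-only, against 16.7%. Pknox1 had the strongest, 108 and 116 in liver and 123 and 111 in lung. Pbx3 had 57 and 60 in liver and 87 and 84 in lung, so the lung values were higher without overlap. Meis2 (26 and 21 in liver) and Meis1 (12 and 17 in liver), partners of PBX and HOX proteins, had no lung peak. Meis2 was the 1 member that was liver-only with equal numbers, where 1.77% of all genes were. Of 39 Hox genes, 33 had no promoter peak in any library, 0 were held in all 4 and 2 (5.13%) were liver-only. Of all 21887 genes, 8593 had no promoter peak in any library.

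Some transcription factors of the neuroendocrine and lung lineages were held at both sites. Of 16, 7 (43.8%) had peaks in all 4 libraries with all peaks and 5 with equal numbers, against 20.8% and 15.7% of all genes. With all peaks 3 (18.8%) were liver-only, near the 16.7% of all genes. Nkx2-1 had 70 and 58 in liver and 72 and 74 in lung. Nfib, a factor linked to spread of small cell lung cancer in mice, had 54 and 58 in liver and 49 and 36 in lung, higher in both liver libraries. Prox1 had 32 and 40 against 35 and 32, and Insm1 26 and 34 against 40 and 29. Neurod1 had no peak in any of the 4 libraries. Of 13 neuroendocrine markers, 4 (30.8%) were held in all 4 libraries, among them Chga (32 and 27, 39 and 29), Uchl1 (28 and 22, 27 and 31) and Ncam1 (32 and 34, 39 and 35). Syt1 had 28 and 23 in liver and no lung peak, and Chgb, Scg3 and Snap25 were also liver-only with all peaks. Calca, Syp and Dcx had none in any library.

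Cell cycle and housekeeping promoters were widely held at both sites. Lung PRM H3K4me3 was present at 100% and 93.3% of them, against 56.3% of all genes, and they were not set against other genes with the mark. Of 20 cell cycle genes, 11 (55%) were held in all 4 libraries with all peaks and 5 (25%) were liver-only, against 20.8% and 16.7% of all genes. Mcm7 had 65 and 56 in liver and 69 and 65 in lung, and Pcna 43 and 63 against 67 and 68, both encoding parts of the replication machinery. E2f1, an activator of S-phase genes, had 20 and 25 in liver and none in lung. Of 15 housekeeping genes, 10 (66.7%) were held in all 4 under both counts. Actb had 89 and 98 in liver and 88 and 100 in lung, and Eef1a1 73 and 85 against 110 and 90.

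Few genes of migration and of the Notch programme were held in all 4 libraries, but lists of 18 and 12 genes cannot show a lack. Of 18 migration genes, 2 were held in all 4 (11.1%, against 20.8% of all genes) and 9 were liver-only (50%, against 16.7%), and with equal numbers 1 was liver-only. S100a4, a calcium-binding protein gene tied to motility, had 25 and 26 in liver and 36 and 31 in lung. The chemokine receptor gene Cxcr4 had 29 and 34 in liver and 17 and 17 in lung, higher in liver without overlap. Mmp9, a matrix protease gene, had 14 and 22 in liver and no lung peak. Of 12 Notch and non-neuroendocrine genes, 1 was held in all 4 with all peaks (Hes1, 8.33% against 20.8% of all genes). Another 5 were liver-only (41.7%, against 16.7%). Hey1, a Notch target gene, had 29 and 33 in liver with none in lung and was liver-only under both counts, as Notch2 was with equal numbers (24 and 29 in liver, 16 in lung replicate 2).

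**Figure D4:**
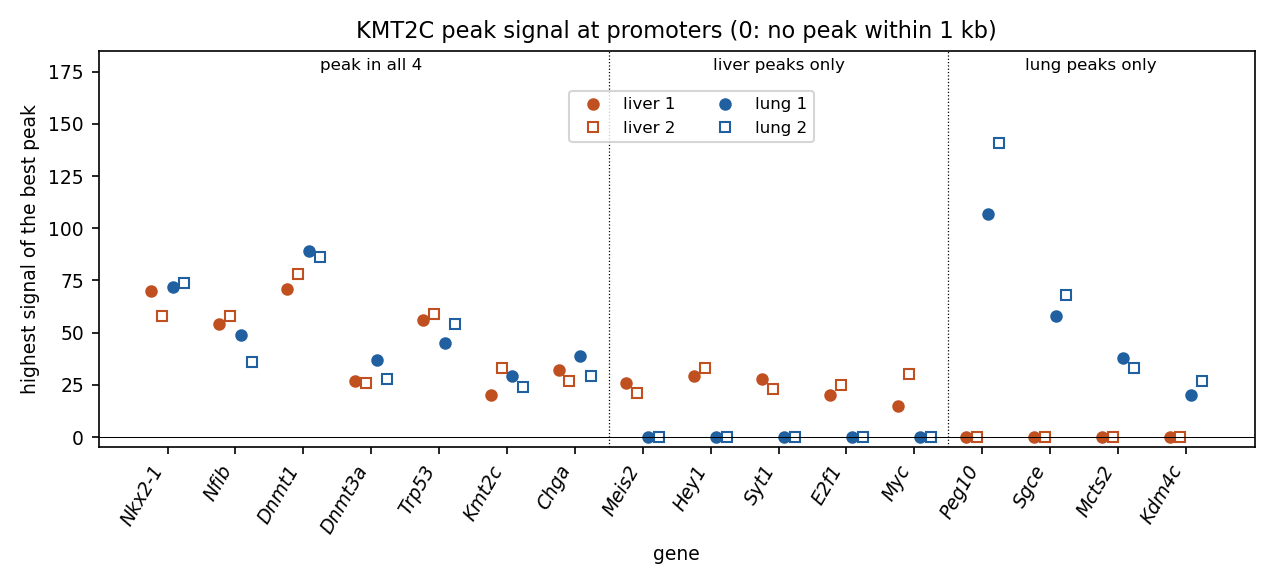
Highest signal of the best KMT2C peak within 1 kb of the start (vertical axis) in each library (liver orange, lung blue; replicate 1 filled circles, replicate 2 open squares) for genes grouped by pattern; 0 means no peak. Nkx2-1 reads 58 to 74 in all 4 libraries, Meis2 reads 26 and 21 in liver only, and Peg10 reads 107 and 141 in lung only. Nfib, Hey1, Myc, Peg10 and Sgce have no listed start and were read within 1 kb of either annotated end.

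Most hepatocyte genes had no promoter peak in the liver libraries. Of 26 hepatocyte genes, 18 had no promoter peak in any library, Alb, Apob, Fga and Cyp2e1 among them, where 8593 of all 21887 genes had none. Apoa2 (28 and 35 in liver, 26 and 14 in lung) and Asgr1 (10 and 14, 15 and 16) had peaks in all 4 libraries. With equal numbers 0 of the 26 were liver-only, but only 1.77% of all genes were, so a list of this size cannot show a lack. With all peaks 3 were liver-only (Apoa1 17 and 15, Trf 13 and 10, Apoc3 10 and 11), or 11.5% against 16.7% of all genes. Hnf4a had only a weak peak of 7 in liver replicate 2. With all peaks, 2 of 5 cholangiocyte markers (40%), 2 of 8 endothelial (25%), 2 of 13 leukocyte (15.4%) and 1 of 9 fibroblast and stellate markers (11.1%) were liver-only. None of these markers was liver-only with equal numbers, beside the same 1.77% of all genes. The endothelial pair was weak, Lyve1 with 8 and 13 and Tek with 10 and 8. Of 13 leukocyte markers, 8 had no peak in any library, and Cd68 was held in all 4 (54 and 49 in liver, 71 and 68 in lung). These are KMT2C peaks and not transcript levels, and fewer host cells and less binding per cell cannot be told apart.

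The strongest lung-only promoters were few. Of the 210 lung-only genes 10 had no liver peak of any strength. Peg10, an imprinted gene derived from a retrotransposon, reached 107 and 141 in the lung libraries, and its neighbour Sgce 58 and 68, with none in liver. Peg10, Sgce and, below, Zfp574, Anks6 and Csf3 have no listed start. Their peaks may lie at either annotated end of the gene. Mcts2, at 38 and 33, and Kdm4c, at 20 and 27, belonged to the same 10, as did Agt (24 and 27) and Zfp574 (33 and 34). Of these 10 genes, 3 (Peg10, Sgce and Mcts2) are imprinted. In a list of 34 imprinted genes drawn up after these values were seen, 3 (8.82%) were lung-only with all peaks, against 0.0548% of all genes. Another 2 (5.88%) were liver-only, against 16.7%, and 8 (23.5%) were held in all 4, near the 20.8% of all genes. Among those 8 were Peg3 (123 and 141 in liver, 142 and 141 in lung) and Gnas (48 and 49, 40 and 48). The list was chosen on these values and is no independent evidence. Of the 387 liver-only genes, 235 had no lung peak. Mylpf, a muscle myosin light chain gene, had the best ranks with 110 and 95, followed by Anks6 with 83 and 91, Gas6 (a ligand of the AXL receptor) with 60 and 80 and Csf3 (a granulocyte growth factor) with 62 and 70.

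The best ranked promoters held in all 4 libraries were those of Sspn, Stap2, Tef, Nr1d1 and Taco1. Sspn, which encodes the muscle membrane protein sarcospan, had 292 and 382 in liver and 425 and 454 in lung, and Stap2, an adaptor protein gene, 267 and 301 against 488 and 472. Tef, a bZIP transcription factor gene, had 294 and 293 in liver and 473 and 458 in lung. Nr1d1, a nuclear receptor gene of the circadian clock, had 212 and 245 against 443 and 398, and Taco1 194 and 211 against 347 and 346. All 5 had higher signals in both lung than in both liver libraries, but near the top of the lists a given rank carried more signal in lung. Sspn ranked 15 and 9 in liver and 18 and 13 in lung, and Tef 14 and 20 in liver and 13 and 12 in lung. The 90th percentile of highest signal among the equal-number peaks was 54 and 58 in liver and 58 and 54 in lung.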

How the data were processed

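CUT&Tag peak lists of 4 libraries were used. For description, H3K4me1 lists of liver and lung PRM were added, with H3K4me2, H3K4me3 and ATAC lists of lung PRM and KMT2C lists of lung PRMK. Per the submitters' processing notes, reads were mapped with Bowtie2 (2.2.1 for ATAC) to mm10 (GRCm38) and CUT&Tag peaks were called with SEACR. Neither the control nor the threshold of calling was given in these sources. The deposited lists hold 1 row per peak, with its total signal and its highest signal, per library and not pooled. The ATAC lists of the authors are deposited as gapped peaks with a score, which was used for presence only, and whose caller these sources do not name.

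Peaks on chromosomes 1 to 19, X and Y were merged in Python 3.11.15 (numpy 2.4.6, pandas 2.3.3, scipy 1.17.1; figures with matplotlib 3.10.9) where they shared 1 bp. The scripts were tested on simulated data. A mark was held where every library of its group had a peak. Starts were the listed RefSeq starts of 17492 protein-coding genes; the other 4395 genes had no listed start and were tested at both annotated ends. Regions were named by mean rank, the 10 best in each class; up to 4 genes of each list were named by mean rank, and other genes named were chosen after their values were seen. The members and lists were chosen with earlier results of these data known. No test across regions was made, because regions are not replicates and n = 2 per site. If the 2 replicates of a site are technical, their spread is too. Intervals are 95% and cover counting error only. Some genes of the lists are not reported here.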

Additional observations from a re-analysis of the deposited data

How the results depend on the processing

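No paired analysis was possible because the results are counts and shares of regions that come from no test across samples. Class counts moved with the definition. With equal numbers the order of liver-only and lung-only regions also changed, with equal covered bases and where a lung library was left out. A stricter rule let a library hold a region only where its peaks covered at least 50% of it. All peaks then gave 3499 shared and 245 lung-only regions. Equal numbers gave 2327 shared, 2277 liver-only and 1197 lung-only regions. Peaks cut to 500 bp around the highest segment gave 600 lung-only regions from all peaks. Taking 50% of the number of peaks gave 2531 shared, 734 liver-only and 702 lung-only regions, as fewer peaks were used. Equal covered bases gave 593 liver-only and 2329 lung-only regions and, for promoters, 114 and 627, and the larger class changed, since lung peaks are shorter and more of them fit.

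Leaving out 1 library at a time relaxes a class to 1 library at that site. The ranges with all peaks were 8284 to 13163 shared, 27872 to 96139 liver-only and 207 to 782 lung-only regions, and 3830 to 5939 liver-only and 13 to 70 lung-only promoters. With equal numbers they were 1831 to 2796 liver-only and 1681 to 2661 lung-only regions, and 614 to 820 liver-only and 392 to 500 lung-only promoters. Among regions, lung-only was the larger class where a lung library was left out, and liver-only where a liver library was. Shares at starts ranged from 57.3% to 58.5% (shared), 23.6% to 32.5% (liver-only) and 18.4% to 24.8% (lung-only), with H3K4me3 from 68.6% to 69.2%, 27.1% to 36.7% and 23.4% to 30.6%, and with H3K4me1 from 45.9% to 48.4%, 38.1% to 46.3% and 56.6% to 65.7%.

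Ordering peaks by total signal gave 57.9% (shared) and 22.7% (lung-only) at starts, 68.2% (shared), 27.5% (liver-only) and 28.8% (lung-only) with H3K4me3, and 53.3% (shared), 60.02% (liver-only) and 57.4% (lung-only) with H3K4me1. Liver-only and lung-only regions changed order for both marks, and for H3K4me3 also without liver replicate 2. The cause was not tested. With 50% of the number, the shares were 65.6% (shared) and 22.6% (lung-only) at starts, 78.3%, 30.8% and 28.8% with H3K4me3, and 45.1% (shared) and 54.0% (liver-only) with H3K4me1. A window of 2500 bp gave 62.0% (shared), 26.4% (liver-only) and 20.1% (lung-only) at starts. Using only genes with a listed start, an alternative chosen after seeing the data, gave 50.6%, 18.7% and 12.3%. Accepting a mark in either library gave 84.5%, 40.6% and 40.6% with H3K4me3 and 56.5%, 53.9% and 76.6% with H3K4me1. Under the alternatives that kept all 4 libraries, 46 values, some of them given above, kept within 1.5 times the count, or within the interval of the share.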
